A study of Zea mays with 12 samples.

Results

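The mitochondrial genome of maize was followed through its transcripts in primary roots of seedlings. Every entry of the deposited expression table with a mitochondrial identifier was taken, which gave 57 entries of 26451. A pair of them, the copies atp1-a1 and atp1-a2, had identical values in every group and was counted once, so that 56 entries were described. Seedlings of the inbred line B73 germinated for 3 days in the dark and then grew for 24 h in 1 of 4 nutrient media. These were medium without nitrogen with 2 µM TIS108, medium with 1 mM nitrate and 10 µM PCIB, medium with 1 mM nitrate, and medium without nitrogen (the N-deprived control). TIS108 inhibits the synthesis of strigolactones, a class of carotenoid-derived hormones, and PCIB (p-chlorophenoxyisobutyric acid) inhibits the action of auxin. Poly(A) RNA was sequenced from 3 biological replicates per group, each of 4 to 8 plants, 12 samples in all. A solvent control for either inhibitor, or a group with PCIB in medium without nitrogen, was not analysed here. Comparing TIS108 with nitrate, or nitrate plus PCIB with the N-deprived control, changes both nitrate and inhibitor, whose parts cannot be told apart.

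The values are FPKM, mapped fragments scaled by the length of the feature and by the total of the library, with 1 value per entry and group. With no replicate values, no spread could be estimated and no test was run (0 tests), so each difference given here has no replicate check. To be counted as past the limit, a difference had to reach 2-fold after 1 was added to both FPKM values, and the higher of them had to reach 5 FPKM. Ratios printed beside levels are plain ratios of FPKM.

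Plant mitochondria keep a genome of their own, which encodes a part of the respiratory chain, proteins that mature cytochrome c, some ribosomal proteins, ribosomal and transfer RNAs, and many open reading frames of unknown role. Most other mitochondrial proteins are encoded in the nucleus and imported. In plant mitochondria a poly(A) tail marks RNA for degradation, unlike the stable tail of cytosolic messenger RNA, so a poly(A) library samples these transcripts in an unusual way. The part of poly(A) selection in the values below was not tested.

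The 56 entries comprised 14 genes of the respiratory chain and ATP synthase, 3 cytochrome c maturation genes, the maturase gene mat-r, 10 ribosomal protein entries, 3 ribosomal RNAs, 2 tRNA entries, 22 open reading frames and rbcL-ct, a pseudogene copy of a plastid gene. In RefSeq 47 of them are protein-coding, 4 are pseudogenes, 3 are ribosomal RNAs and 2 are tRNA pseudogenes. RefSeq lists 214 mitochondrial records, and those outside the 57 were not analysed here. None of the 57 entries was listed at 0 in any group (0 values).

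Mitochondrial transcripts were a small part of the table. Their FPKM values summed to 179.5 with TIS108, 254 with nitrate plus PCIB, 282 with nitrate and 319 in the N-deprived control. As a share of all summed FPKM this was 0.0401% with TIS108, 0.0524% with nitrate plus PCIB, 0.0601% with nitrate and 0.0640% in the control. The sum was thus smallest with TIS108 and largest in the control. Less mitochondrial RNA per cell and another mix of root cells cannot be told apart in such bulk values. A pair of entries, rps12 and atp9, made up 34.7% of the mitochondrial sum with TIS108, 31.9% with nitrate plus PCIB, 36.7% with nitrate and 41.1% in the control. Without them the sums were 117, 173, 178 and 188 FPKM in the same order of groups, so that TIS108 stood apart from the other 3 groups, which lay close together. The median entry was at 1.23 FPKM with TIS108, 2.46 FPKM with nitrate plus PCIB, 1.95 FPKM with nitrate and 1.86 FPKM in the control.

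**Figure D1:**
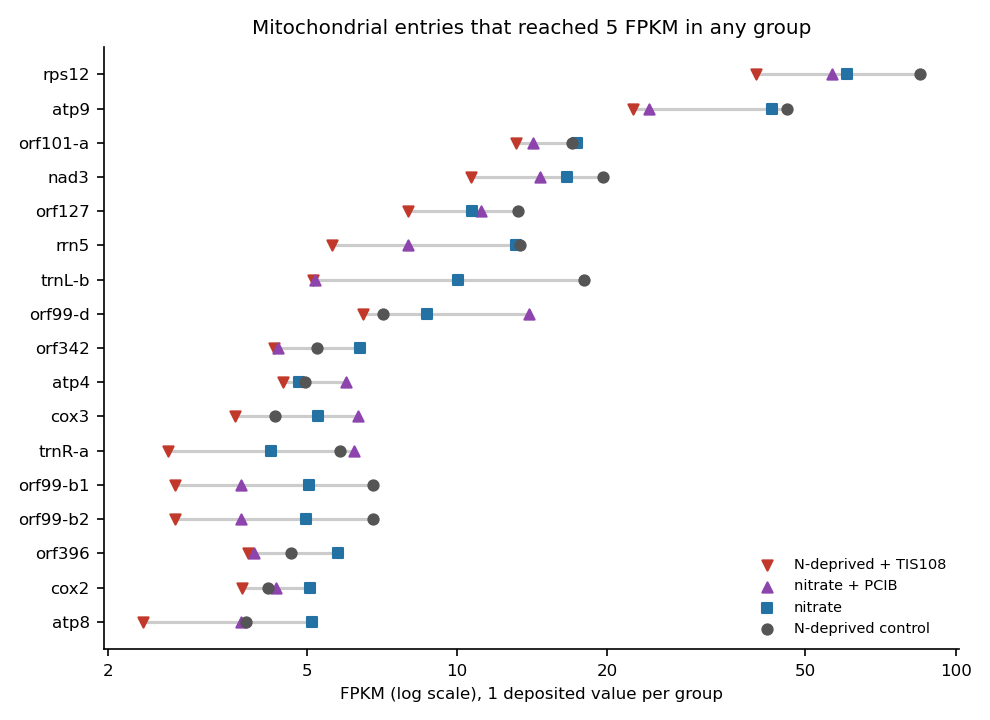
FPKM (log scale) of the 17 mitochondrial entries that reached 5 FPKM in any group, 1 symbol per group and 1 row per entry, ordered by mean level. As deposited, TIS108 (downward triangle) is the lowest of the 4 values in every row. Nitrate plus PCIB (upward triangle) is the highest for orf99-d, atp4, cox3 and trnR-a and close to TIS108 for atp9 and trnL-b. TIS108 is not lowest in every row once the columns have equal sums: it then exceeds the control for orf99-d and atp4, and nitrate plus PCIB for trnL-b.

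The order of the groups was uneven. TIS108 gave the lowest of the 4 values for 45 of 56 entries, or 80.4%, whereas it was lowest for 21.7% of all entries of the table. Nitrate plus PCIB gave the highest value for 26 entries, or 46.4%, against 24.3% of all entries. The N-deprived control was highest for 17 entries (30.4%, against 28.2% of all entries) and nitrate for 12 (21.4%, against 27.8%). TIS108 was highest for rbcL-ct alone, 1 entry or 1.79%, against 19.7% of all entries. Of the 45 entries lowest with TIS108, 19 were highest with nitrate plus PCIB, 16 in the control and 10 with nitrate. After rescaling or quantile normalization of the columns TIS108 was lowest for 36 to 41 entries, where 12.2% to 16.9% of all entries were lowest with it. Nitrate plus PCIB was then highest for 21 to 23 entries. After quantile normalization nitrate plus PCIB was highest for 21 entries, against 21.7% of all entries, and nitrate for 23, against 33% of all entries. The highest group exceeded the lowest by a median factor of 1.90, against 1.64 over all entries with a mean under 5 FPKM and 1.38 over the whole table. It was widest for trnL-b, a factor of 3.50, and narrowest for orfX, a factor of 1.24.

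Complex I, NADH dehydrogenase, takes electrons from NADH at the start of the respiratory chain and was represented by 5 genes. The subunit gene nad3 had the highest level of them, at 10.7 FPKM with TIS108, 14.7 FPKM with nitrate plus PCIB, 16.6 FPKM with nitrate and 19.6 FPKM in the N-deprived control. For nad4 the levels were 1.12 FPKM with TIS108, 2.65 FPKM with nitrate plus PCIB, 2.06 FPKM with nitrate and 1.81 FPKM in the control. The gene nad7 was at 0.742 FPKM with TIS108, 1.59 FPKM with nitrate plus PCIB, 1.15 FPKM with nitrate and 1.05 FPKM in the control. These genes had TIS108 as their lowest group, but nad3 was highest in the control and nad4 and nad7 with nitrate plus PCIB.

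The other two complex I genes were nad9 and nad6. Levels of nad9 were 1.99 FPKM with TIS108, 3.05 FPKM with nitrate plus PCIB, 2.87 FPKM with nitrate and 2.91 FPKM in the control. The gene nad6 was at 1.03 FPKM with TIS108, 1.96 FPKM with nitrate plus PCIB, 0.949 FPKM with nitrate and 1.44 FPKM in the control. It was the only complex I gene whose lowest value came with nitrate, and its ratio of nitrate plus PCIB over nitrate, 2.07, was the widest upward among the 56 entries. At these levels it stayed under the 5 FPKM needed to be counted.

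Complex III passes electrons from ubiquinol to cytochrome c, and its apocytochrome b gene cob was at 1.91 FPKM with TIS108, 4.35 FPKM with nitrate plus PCIB, 2.91 FPKM with nitrate and 2.52 FPKM in the control. It was thus highest with nitrate plus PCIB, 1.49 times the level with nitrate.

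Complex IV, cytochrome c oxidase, reduces oxygen at the end of the chain. Its subunit gene cox1 was at 2.31 FPKM with TIS108, 3.36 FPKM with nitrate plus PCIB, 3.60 FPKM with nitrate and 2.85 FPKM in the control. For cox2 the levels were 3.70 FPKM with TIS108, 4.33 FPKM with nitrate plus PCIB, 5.07 FPKM with nitrate and 4.17 FPKM in the control. For cox3 they were 3.59 FPKM with TIS108, 6.34 FPKM with nitrate plus PCIB, 5.26 FPKM with nitrate and 4.32 FPKM in the control. All 3 genes were lowest with TIS108, next to lowest in the control, and above it with nitrate, and nitrate plus PCIB was the highest group for cox3 alone.

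Complex V, the ATP synthase, makes ATP from the proton gradient. The gene of its membrane ring subunit, atp9, had the second highest mitochondrial level in every group. It was at 22.5 FPKM with TIS108, 24.3 FPKM with nitrate plus PCIB, 42.9 FPKM with nitrate and 45.8 FPKM in the control. Both groups with an inhibitor were therefore near the same low level and both groups without one near the same high level. The difference between TIS108 and the control was -0.99 on the log2(FPKM + 1) scale, just short of the limit, and that between nitrate plus PCIB and nitrate was -0.80.

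Of the other ATP synthase genes, 3 were above nitrate in the presence of PCIB and atp8 was below it. The catalytic head subunit gene atp1 was at 1.16 FPKM with TIS108, 2.40 FPKM with nitrate plus PCIB, 1.96 FPKM with nitrate and 1.55 FPKM in the control. Levels of atp6, the gene of the proton channel subunit, were 2.40 FPKM with TIS108, 4.36 FPKM with nitrate plus PCIB, 3.38 FPKM with nitrate and 2.79 FPKM in the control. The stalk subunit gene atp4 was at 4.48 FPKM with TIS108, 5.98 FPKM with nitrate plus PCIB, 4.82 FPKM with nitrate and 4.95 FPKM in the control. All of these were highest with nitrate plus PCIB. The membrane subunit gene atp8 was at 2.35 FPKM with TIS108, 3.70 FPKM with nitrate plus PCIB, 5.11 FPKM with nitrate and 3.78 FPKM in the control, and so was highest with nitrate. Its ratio of nitrate plus PCIB to nitrate was 0.723, and that of atp9 was 0.566.

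**Figure D2:**
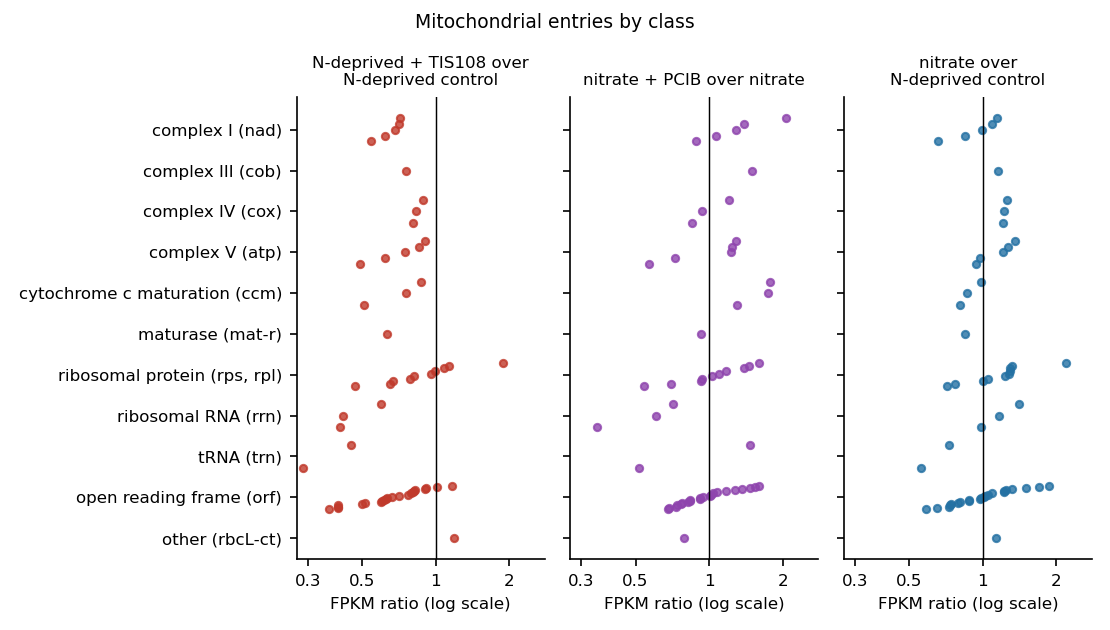
Ratio of FPKM between 2 groups (log scale) for each of the 56 mitochondrial entries, 1 point per entry, by class. With TIS108 over the N-deprived control all 14 nad, cob, cox and atp genes lie below 1, whereas with nitrate plus PCIB over nitrate 9 of them lie above 1 and 5 below; once the columns have equal sums 13 of 14 lie below 1 with TIS108, and after quantile normalization 8 lie above 1 with nitrate plus PCIB.

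Over the 14 respiratory chain and ATP synthase genes, all 14 were below the N-deprived control with TIS108, at ratios of 0.492 to 0.905, but 13 of 14 once the columns had equal sums. Among all 26451 entries 52.2% were below the control with TIS108. Against nitrate 13 of 14 were below with TIS108, where 51.8% of all entries were below, and the median ratio was 0.651. With nitrate plus PCIB, 5 of 14 were below nitrate, or 6 of 14 after quantile normalization, against 52.6% of all entries. Against the control 3 of 14 were below with nitrate plus PCIB (2 of 14 once the columns had equal sums), where 51.4% of all entries were below. The median ratios of nitrate plus PCIB were 1.22 to nitrate and 1.29 to the control. With nitrate, 5 of 14 were below the control, against 49% of all entries, and 3 of 14 under each of the 3 scalings. The entries below nitrate in the presence of PCIB were nad3, cox1, cox2, atp8 and atp9. All shares of all entries given beside these counts are as deposited, and the scalings moved the whole table too. Equal sums moved its median log2 difference from the control to 0.10 with TIS108 and to 0.02 with nitrate plus PCIB, each from -0.01. With nitrate it moved from 0.01 to 0.07 under each of the 3 scalings. Quantile normalization moved that of nitrate plus PCIB from nitrate to -0.06, from -0.02.

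Ratios between genes within a group do not change when a whole column is rescaled. The ratio of atp9 to atp1 was 19.5 with TIS108, 10.1 with nitrate plus PCIB, 21.9 with nitrate and 29.6 in the control. That of atp9 to atp6 was 9.39 with TIS108, 5.57 with nitrate plus PCIB, 12.7 with nitrate and 16.4 in the control. Both ratios were lowest with nitrate plus PCIB and highest in the control. The ratio of cox2 to cox3 was 1.03 with TIS108, 0.684 with nitrate plus PCIB, 0.963 with nitrate and 0.967 in the control, so that the group with PCIB stood apart from 3 groups near 1.

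**Figure D3:**
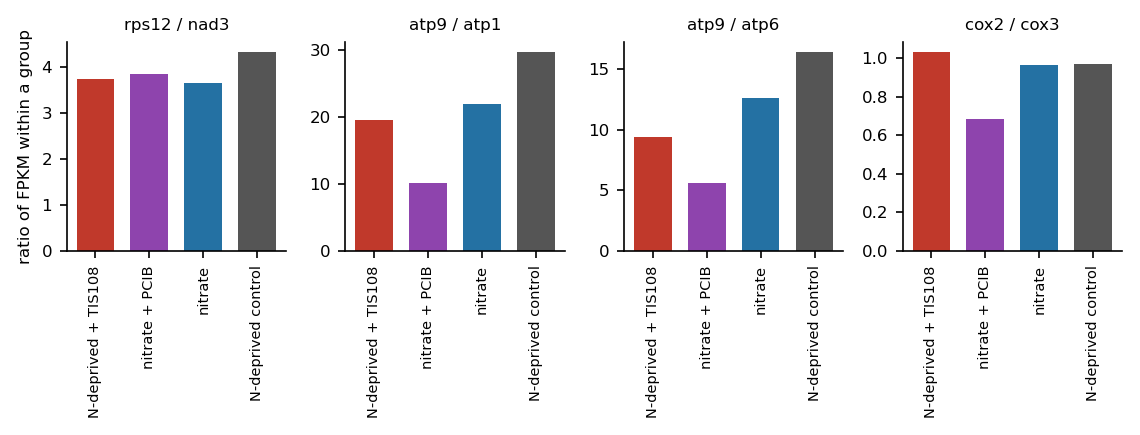
Ratio of the FPKM of one mitochondrial gene to that of another within each group, 1 bar per group from 1 deposited value each, with no error bar because no replicate values were used. The ratio of atp9 to atp1 is 10.1 with nitrate plus PCIB and 21.9 with nitrate, while that of rps12 to nad3 stays between 3.65 and 4.33 in all 4 groups.

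The cytochrome c maturation genes encode proteins that attach heme to c-type cytochromes. The gene ccmFN was at 1.26 FPKM with TIS108, 2.51 FPKM with nitrate plus PCIB, 1.44 FPKM with nitrate and 1.66 FPKM in the control. For ccmC the levels were 0.364 FPKM with TIS108, 0.915 FPKM with nitrate plus PCIB, 0.705 FPKM with nitrate and 0.716 FPKM in the control. The gene ccmFC was at 0.237 FPKM with TIS108, 0.393 FPKM with nitrate plus PCIB, 0.222 FPKM with nitrate and 0.274 FPKM in the control. All 3 were highest with nitrate plus PCIB, at 1.30 to 1.78 times the level with nitrate, and all were below the control with TIS108 (2 of 3 after quantile normalization). The maturase gene mat-r, whose product helps to splice introns of other mitochondrial transcripts, was at 0.550 FPKM with TIS108, 0.686 FPKM with nitrate plus PCIB, 0.741 FPKM with nitrate and 0.873 FPKM in the control.

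Among the 10 ribosomal protein entries, rps12 had the highest level of all mitochondrial entries in every group. It was at 39.8 FPKM with TIS108, 56.6 FPKM with nitrate plus PCIB, 60.6 FPKM with nitrate and 85.0 FPKM in the N-deprived control. The 2 groups with nitrate were close to each other, and the 2 groups without nitrogen were the lowest and the highest. The other 9 entries stayed under 5 FPKM, from rps4 at 0.286 FPKM with TIS108 to rps1 at 3.58 FPKM with nitrate plus PCIB.

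Ribosomal protein entries lay on both sides of the control with TIS108: 7 of 10 were below the control, and 5 of 10 under each of the 3 scalings. Their median ratio was 0.886. The entry rpl16, which overlaps rps3, was at 1.20 FPKM with TIS108, 1.64 FPKM with nitrate plus PCIB, 1.40 FPKM with nitrate and 0.636 FPKM in the control. It was lowest in the control, against the order of most entries. With nitrate plus PCIB, 6 of 10 were above nitrate, but 5 of 10 once the columns had equal sums and 4 of 10 after quantile normalization.

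The genes rps12 and nad3 are neighbours, and in wheat they are transcribed as a unit. In the RefSeq gene order orf179, rps12, nad3 and trnL-b follow one another with no other annotated gene between them. Against the N-deprived control the ratios with TIS108 were 0.399 for orf179, 0.468 for rps12, 0.542 for nad3 and 0.286 for trnL-b. Against nitrate those with nitrate plus PCIB were 0.915 for orf179, 0.933 for rps12, 0.886 for nad3 and 0.517 for trnL-b. As deposited, all 4 neighbours were lowest with TIS108 and highest in the control, and trnL-b differed most in each comparison. For trnL-b, TIS108 and nitrate plus PCIB were close, at 5.14 and 5.19 FPKM. Once the columns had equal sums, nitrate plus PCIB was the lower of them, with log2 differences from the control of -1.58 against -1.49 with TIS108. The ratio of rps12 to nad3 was 3.74 with TIS108, 3.85 with nitrate plus PCIB, 3.65 with nitrate and 4.33 in the control. It moved far less than the levels of either gene. The ratio of trnL-b to nad3 was 0.482 with TIS108, 0.353 with nitrate plus PCIB, 0.605 with nitrate and 0.916 in the control. Reads of a transcript that spans neighbours can count for each of them, so such entries are not independent.

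**Figure D4:**
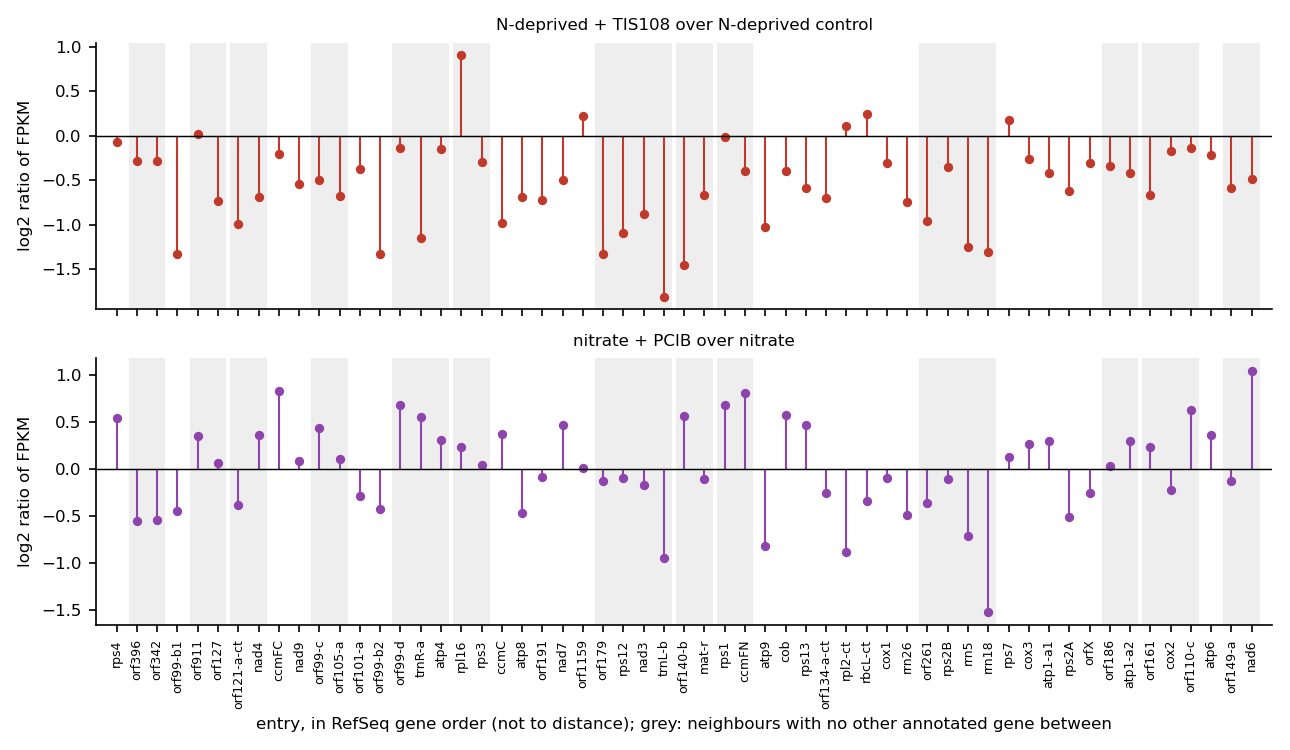
Log2 ratio of FPKM for all 57 mitochondrial entries in RefSeq gene order, above for TIS108 over the N-deprived control and below for nitrate plus PCIB over nitrate, with grey behind runs of neighbours. The run of orf179, rps12, nad3 and trnL-b lies below 0 in both panels, and rps1 with ccmFN lies above 0 only in the lower panel; after rescaling or quantile normalization rps1 lies above 0 in the upper panel too.

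In all, 32 of the 57 entries fell into 13 runs of 2 or more neighbours, the longest of 4. The neighbours rps1 and ccmFN were 1.61 and 1.75 times their levels with nitrate in the presence of PCIB, and 0.994 and 0.760 times the control with TIS108. After rescaling or quantile normalization rps1 was above the control with TIS108. Not all neighbours went together: nad6 was at 2.07 times its level with nitrate in the presence of PCIB and its neighbour orf149-a at 0.915 times. Overlapping neighbours, such as orf396 with orf342 and trnR-a with atp4 (4 such pairs), may share reads.

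The ribosomal RNA entries were led by rrn5, at 5.61 FPKM with TIS108, 7.96 FPKM with nitrate plus PCIB, 13.1 FPKM with nitrate and 13.4 FPKM in the control. As for atp9, the groups with an inhibitor were low and those without one nearly equal. The large and small subunit RNAs rrn26 and rrn18, which form the bulk of mitochondrial RNA in the organelle, were among the entries with the lowest levels in this poly(A) library. The entry rrn18 was at 0.0868 FPKM with TIS108, 0.0866 FPKM with nitrate plus PCIB, 0.250 FPKM with nitrate and 0.214 FPKM in the control. For rrn26 the levels were 0.0899 FPKM with TIS108, 0.150 FPKM with nitrate plus PCIB, 0.211 FPKM with nitrate and 0.150 FPKM in the control. Each of the 3 was lower in both groups with an inhibitor than in the nitrate group, under every scaling used. Scaling reworks the same 1 value per group and is no replicate check, and rrn18 and rrn26 did not exceed 0.250 FPKM. Against the control all 3 were lower with TIS108, but with nitrate plus PCIB rrn26 stood at a ratio of 1.00.

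Both tRNA entries are annotated as pseudogenes, and their short length makes FPKM unstable. The entry trnL-b was at 5.14 FPKM with TIS108, 5.19 FPKM with nitrate plus PCIB, 10.0 FPKM with nitrate and 18.0 FPKM in the control. The entry trnR-a was at 2.64 FPKM with TIS108, 6.23 FPKM with nitrate plus PCIB, 4.25 FPKM with nitrate and 5.83 FPKM in the control. The control value of trnL-b lay far above the rest, whereas trnR-a was highest with nitrate plus PCIB.

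Among the 22 open reading frames 7 reached 5 FPKM in some group. The highest, orf101-a, was at 13.1 FPKM with TIS108, 14.2 FPKM with nitrate plus PCIB, 17.4 FPKM with nitrate and 17.0 FPKM in the control. Levels of orf127 were 7.97 FPKM with TIS108, 11.2 FPKM with nitrate plus PCIB, 10.7 FPKM with nitrate and 13.3 FPKM in the control. The frame orf99-d was at 6.48 FPKM with TIS108, 13.9 FPKM with nitrate plus PCIB, 8.71 FPKM with nitrate and 7.11 FPKM in the control. Of these 3, only orf99-d was highest with nitrate plus PCIB.

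The repeat copies orf99-b1 and orf99-b2 had the same values but for nitrate. Both were at 2.72 FPKM with TIS108, 3.70 FPKM with nitrate plus PCIB and 6.80 FPKM in the control, and with nitrate they were at 5.04 and 4.98 FPKM. Reads from the copies cannot be told apart here. The overlapping frames orf396 and orf342 were at 3.82 and 4.30 FPKM with TIS108, 3.92 and 4.38 FPKM with nitrate plus PCIB, 5.78 and 6.39 FPKM with nitrate, and 4.65 and 5.25 FPKM in the control. The other 15 frames stayed under 5 FPKM, from orf1159 at 0.144 FPKM in the control to orf179 at 4.17 FPKM, also in the control. TIS108 was the lowest group for 19 of the 22 frames. The control was the highest group for 10, nitrate plus PCIB for 7 and nitrate for 5.

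By the 2-fold limit few mitochondrial entries differed. In the comparison of TIS108 with the N-deprived control, 12 entries reached 5 FPKM in either group, 4 of them in the control alone. Of the 12, 5 were lower (orf99-b1, orf99-b2, rps12, trnL-b and rrn5) and 0 higher. Over all entries tested 1.85% were lower and 0.0195% higher. The 5 are not independent: reads of the copies orf99-b1 and orf99-b2 cannot be told apart, and rps12 and trnL-b lie in the same run of neighbours. The 4 that passed through the control alone had to be lower, and they include orf99-b1 and orf99-b2, so the count over the 12 is not read as a share. Once the columns had equal sums 1 of the 5 differences, that of trnL-b, was past the limit. The others came to lie short of it, at -0.93 for rps12, -0.95 for orf99-b1 and orf99-b2 and -0.98 for rrn5 on the log2(FPKM + 1) scale, against -1.08, -1.07 and -1.12 as deposited. That rescaling moved the median log2 difference of all entries to 0.10, against -0.01 as deposited.

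In the comparison of nitrate plus PCIB with nitrate, 16 entries reached 5 FPKM and 0 were past the limit in either direction, against 3.70% higher and 0.861% lower over all entries. The widest difference among the 16 was that of trnL-b, at -0.84 on the log2(FPKM + 1) scale. Nitrate against the control also gave 0 of 16, against 0.561% higher and 3.46% lower over all entries. In the comparison of nitrate plus PCIB with the control 1 of 14 was lower, trnL-b, and 0 were higher, against 2.00% lower and 1.91% higher over all entries. In that of TIS108 with nitrate 1 of 14 was lower, rrn5, and 0 were higher, against 0.597% lower and 0.757% higher. The comparisons with the control share its column, and those with nitrate share the nitrate column.

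Counted without a limit of size, 50 of 56 entries were below the control with TIS108 and 51 of 56 below nitrate, or 89.3% and 91.1%, against 52.2% and 51.8% of all entries. As deposited, the entries above the control were rps7, rpl16, rpl2-ct, rbcL-ct, orf911 and orf1159. Once the columns had equal sums, 45 of 56 were below the control with TIS108 and 50 of 56 below nitrate. The entries rps4, orf99-d, atp4, rps1 and orf110-c were then above the control too. After quantile normalization 46 of 56 were below the control and 54 of 56 below nitrate. Against the control these scalings moved the median log2 difference of all entries from -0.01 to 0.10 and 0.05. With nitrate plus PCIB 26 of 56 were below the control (46.4%, against 51.4% of all entries). Against nitrate it left 27 of 56 below, or 48.2%, against 52.6% of all entries, so that the mitochondrial set as a whole was split like the table. After quantile normalization 33 of 56 were below, and the median log2 difference of all entries moved from -0.0160 to -0.0604. With nitrate 25 of 56 were below the control, or 44.6%, against 49% of all entries, and 15 of 56 after quantile normalization. For nitrate against the control that normalization moved the median log2 difference of all entries from 0.0068 to 0.0745. The shares of all entries given here are those as deposited.

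Entries were also split by their mean level, and no difference between the levels was tested. In the comparison of nitrate plus PCIB with nitrate, among 10 entries whose mean over the groups reached 5 FPKM, 7 were below nitrate, with a median ratio of 0.851, and of the 46 entries with a lower mean 20 were below, with a median ratio of 1.05. Among all 26451 entries 58.4% at the higher mean and 45.3% at the lower mean were below nitrate. In the comparison of nitrate plus PCIB with the control, 8 of 10 and 18 of 46 were below, against 49.6% and 53.6% of all entries. In that of nitrate with the control, 7 of 10 and 18 of 46 were below, against 41.6% and 58.4% of all entries. With TIS108 10 of 10 and 40 of 46 were below the control, against 47.1% and 58.5% of all entries, and their median ratios were 0.571 and 0.711. These counts are as deposited. Once the columns had equal sums, orf99-d and atp4, both at the higher mean, lay above the control with TIS108, at log2 differences of 0.02 and 0.01.

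Plastid transcripts come from the other organelle genome of these cells. The 15 plastid entries had a median ratio to the control of 1.16 with TIS108, with 8 above and 7 below, where the mitochondrial median ratio was 0.708. Copies of rpl23 had the same values but for nitrate plus PCIB, at 1.33 FPKM with TIS108 and 1.15 FPKM in the control. Each copy was counted, and the median ratio of 1.16 is theirs. The median plastid level was low, at 0.498 FPKM with TIS108 and 0.560 FPKM in the control. Against nitrate the plastid median ratio was 0.824 with TIS108, with 3 above and 12 below, where the mitochondrial one was 0.656. The plastid entries thus lay on both sides of the control with TIS108 and mostly below nitrate. Of the 8 plastid genes set down as markers of green tissue, 3 were in the table (psbA, psaB and rbcL), at 0.0823 to 1.04 FPKM over the 4 groups, with none at 0. Their summed level was 1.48 FPKM with TIS108, 2.13 FPKM with nitrate plus PCIB, 1.57 FPKM with nitrate and 1.41 FPKM in the control. The part of such plastid transcripts in the mitochondrial values was not tested. No nuclear gene model could be paired with a name (0 of 26061), so markers of root tissue and nuclear genes of mitochondrial proteins were not examined.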

How the data were processed

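Total root RNA was isolated with a kit for plant tissue, and a TruSeq kit gave paired-end poly(A) libraries, per the labels' protocols. The submitters' processing notes name CASAVA 1.8, Trimmomatic 0.39, TopHat2 2.0.13 and the maize build B73 RefGen_v4, with no role or order. The authors deposited 1 table of FPKM values with 1 column per group. The way in which the 3 replicates were combined, the program that computed FPKM, the annotation release and the use of strand were not given in the sources used here. Columns of no group numbered 0. The table gives no counts, so depth is unknown, and neither intervals nor detection limits are given. FPKM is relative to feature length and column total, and values of short features are the least stable.

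The plan named limma for a table with replicates. With 1 value per group 0 tests were run, and the planned limit was used: 2-fold on the log2(FPKM + 1) scale (pseudocount 1) with at least 5 FPKM in the higher group, over all 26451 entries, for 5 comparisons. The calling step was run on a copy of a column without noise, with large changes set in entries of high level. This checks the code only, not calls near the limit or at low levels. Symbols of all 57 mitochondrial entries, their gene order and overlap came from RefSeq's gene table for Zm-B73-REFERENCE-NAM-5.0. It was used for names, annotation type and neighbours only, since its build differs. Strand was not used. Values in every group are given for each entry that reached 5 FPKM or passed the limit and for each respiratory, ccm and maturase gene, and other entries by range and count. Singled-out examples beyond these, the ratios between genes and the runs of neighbours were chosen after their values were seen. The members and lists were chosen with earlier results of these data known. Alternatives were other pseudocounts, minimum levels and limits, columns rescaled to the same sum of all entries or of nuclear gene models, quantile normalization, and every entry counted. Python 3.11.15, pandas 2.3.3, numpy 2.4.6 and matplotlib 3.10.9 were used.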

Additional observations from a re-analysis of the deposited data

How the results depend on the processing

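The number of mitochondrial entries past the limit was small and moved with the settings. For TIS108 against the N-deprived control it was 5, and became 2 with a pseudocount of 5, 3 with the minimum of 5 FPKM set on the mean of the groups, 1 after rescaling to equal sums or equal nuclear sums, and 9 with a 1.5-fold limit. All of these were lower. For TIS108 against nitrate it was 1, and became 2 when 0.1 was added in place of 1, 0 when 5 was added and 7 with a 1.5-fold limit. With a 1.5-fold limit it was 1 in place of 0 for nitrate against the control, and that entry was lower. For nitrate plus PCIB against the control that limit gave 6 in place of 1, with 1 higher and 5 lower. For nitrate plus PCIB against nitrate it gave 4 in place of 0, with 1 higher and 3 lower. The other 39 of 50 counts stayed within a factor of 1.5. The fewer calls with a higher pseudocount or a minimum on the mean, and the more with a lower limit, follow from those settings. Shares of all entries past the limit under the alternatives are not given here, so these counts are not read against the table. Under the 10 alternatives the median log2 difference of the 56 entries ranged from -0.45 to -0.10 for TIS108 against the control (-0.26 as reported), from -0.58 to -0.15 for TIS108 against nitrate (-0.37), and from -0.09 to 0.02 for nitrate plus PCIB against nitrate (0.01). No paired analysis was possible because the columns hold 1 value per group and no replicate, and for the same reason replicates were not left out in turn.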
